A study of Mus musculus with 8 samples.

Results

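The DNA replication machinery was followed as 41 genes, of 50600 genes listed in the count table. They were chosen by their established roles with earlier results of these data known, so that shares called among them are a description. The genes encode the subunits of the replicative helicase (11 genes), origin licensing proteins (5), the initiation factor Mcm10, DNA polymerase and primase subunits (8), the sliding clamp and its loader (6), a single-strand binding complex (2), enzymes of Okazaki fragment maturation (2), enzymes of nucleotide supply (5) and the maintenance methylation factor Uhrf1. RNA was measured in 8 sequencing libraries from mouse malignant peripheral nerve sheath tumour (MPNST) cells, with 2 libraries in each of 4 groups. The NF1-MET line came from a mouse tumour with a knockout and a floxed allele of Nf1 and a conditional MET transgene. The floxed allele and the transgene were under an inducible Cre. The line is labelled wild type for Trp53, and whether these cells carry an empty vector is not given in the labels. The NF1-MET;sgP53 line was derived from it with a lentiviral CRISPR guide against Trp53 and is labelled as the Trp53 knockout. Each line was grown with DMSO vehicle or with 100 nM capmatinib, a selective inhibitor of the MET receptor tyrosine kinase, for 24 hours. Each genotype is 1 line, so that loss of Trp53 and any other difference between the lines cannot be told apart.

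Before S phase, the origin recognition complex, Cdc6 and Cdt1 load the Mcm2 to Mcm7 ring onto DNA as an inactive double hexamer. At the onset of S phase the ring is joined by Cdc45 and the GINS complex, which turns it into the active helicase, and the polymerases, primase and sliding clamp then copy both strands. Many of these genes are textbook targets of the E2F transcription factors, which the retinoblastoma protein holds in check until cyclin-dependent kinases phosphorylate it, and mitogens feed into that step mainly through D-type cyclins.

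The libraries held 30116810 to 42781371 counts. All 41 genes passed the filter of 10 counts in at least 2 libraries, as did 14497 genes in all, and the lowest count of any of the 41 in any library was 206. The locus Gm42418, which overlaps ribosomal RNA sequence, took between 1.11% and 13.1% of the counts of a library and differed between libraries of the same group, and the levels below are CPM (counts of the gene per 1000000 counts of the library) corrected by TMM factors, which lay between 0.898 and 1.10. Trp53 transcripts stood at 182 and 193 CPM in the vehicle libraries of NF1-MET and at 97.5 and 100.1 CPM in those of NF1-MET;sgP53, and Cdkn1a, a direct p53 target, stood at 92.9 and 87.2 CPM against 29.5 and 27.1 CPM. Among Schwann cell and neural crest markers, Nes, Tfap2a, Twist1, Sox2, Sox9 and Gap43 exceeded 1 CPM in every group, while Sox10 and S100b were near 0 in every group. The labels name separate replicates but not separate cultures or days. The study's methods state that plated cells were treated in duplicate, without saying whether on the same day. The p-values thus measure only the spread between these libraries, which may be technical.

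RNA of each of the 41 replication genes was lower after capmatinib in NF1-MET cells. All of them fell (edgeR quasi-likelihood test, Benjamini-Hochberg adjusted p under 0.05 over all genes), where 34.7% of all genes tested were called lower and 35.5% higher. The median log2 fold change of the 41 was -0.81, against 0.00 over all genes, and the changes ran from -1.22 for Mcm7 to -0.19 for Rpa1. Fold changes past -1 on the log2 scale were found for 7 of the 41, and called falls of that size for 5.35% of all genes. Both capmatinib libraries lay below both vehicle libraries for each of the 41 genes, an arrangement seen in 40.4% of all genes. Summed over the 41 genes, the level was 3961 and 4042 CPM in the vehicle libraries and 2331 and 2329.9 CPM in the capmatinib libraries, so that the treated cells held 58.2% of the vehicle level. In RNA from whole cultures, fewer cells in S phase and less RNA per cell cannot be told apart.

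The same genes fell in NF1-MET;sgP53 cells. All 41 were called lower, where 33.4% of all genes tested were called lower and 34.2% higher, and their median log2 fold change was -0.93, from -1.29 for Mcm7 to -0.35 for Rfc1. The fold change passed -1 on the log2 scale for 16 of the 41, and called falls of that size were found for 5.02% of all genes. Again no gene's capmatinib libraries overlapped its vehicle libraries, where 40.6% of all genes had both capmatinib libraries below both vehicle libraries. The summed level went from 4239 and 4206 CPM in vehicle to 2201 and 2241 CPM in capmatinib, or 52.6% of the vehicle level. The 2 comparisons share no library, and across the 41 genes their fold changes had a Pearson r of 0.91, given as a description since all points of a comparison come from the same 4 libraries. Markers of cell types moved with the treatment in both directions. In NF1-MET the mean level of Sox2 was 152 CPM in vehicle and 26.4 CPM in capmatinib, that of Sox9 65.05 and 16.2 CPM and that of Gap43 18.4 and 2.84 CPM, and the 3 were lower in capmatinib in NF1-MET;sgP53 too. Nes stood at 428 and 462 CPM, Tfap2a at 62.9 and 72.8 CPM and Twist1 at 45.2 and 44.01 CPM. The sum of 6 fibroblast markers, most of it Col1a1, lay between 3010 and 3981 CPM in the vehicle libraries and between 15993 and 16299 CPM in the capmatinib libraries, with 5 of the 6 over 1 CPM in at least 1 library and Lum near 0. Its members did not move together, since the mean level in NF1-MET went from 181 to 447 CPM for Pdgfrb and from 0.934 to 2.58 CPM for Thy1, but from 418 to 326 CPM for Pdgfra and from 1.12 to 0.635 CPM for Dcn, with the same directions in NF1-MET;sgP53. The part of these markers in the fall of the replication genes was not tested.

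**Figure D1:**
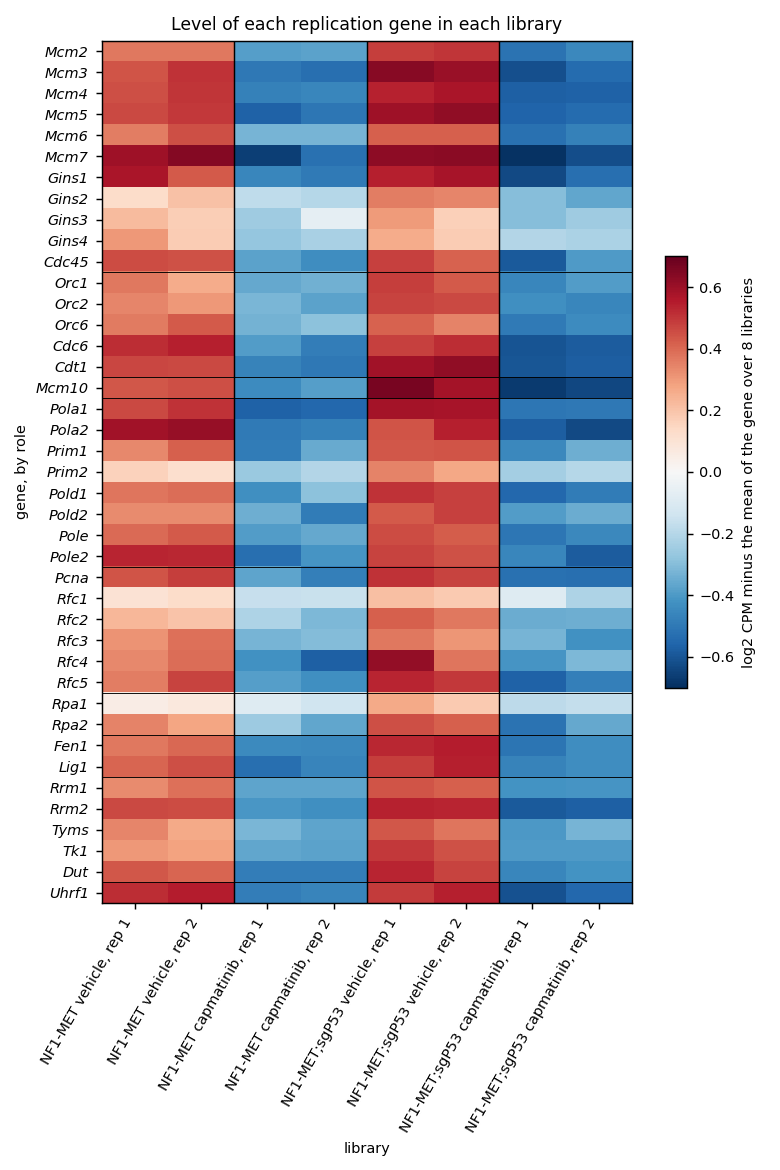
Level of each of the 41 replication genes in each library, as log2 CPM minus the mean of that gene over the 8 libraries (colour), with genes in rows by role and libraries in columns by group. The 4 vehicle libraries are above the gene's mean and the 4 capmatinib libraries below it for every gene, with the palest rows at Rpa1 and Rfc1.

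Among the 11 helicase genes the fall was largest for Mcm7, one of the 6 subunits of the MCM ring (chr5:138164583-138172422, minus strand, mm10). Mcm7 stood at 186 and 193 CPM in NF1-MET vehicle and at 78.3 and 85.9 CPM in NF1-MET capmatinib, and in NF1-MET;sgP53 it stood at 190.2 and 191 CPM in vehicle and at 76.4 and 80.2 CPM in capmatinib. Its level thus dropped below that of vehicle by more than the spread in both lines, with log2 fold changes of -1.22 ± 0.034 (SE, adjusted p = 5.17e-25) and -1.29 ± 0.035 (adjusted p = 1.37e-18). The other 5 ring subunits fell by less, from -0.75 for Mcm6 to -1.03 for Mcm5 in NF1-MET and from -0.91 for Mcm6 to -1.20 for Mcm3 in NF1-MET;sgP53. Cdc45, which joins the ring to form the active helicase, changed by -0.87 ± 0.049 and -0.93 ± 0.057.

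Per length of transcript, the ring subunits were not equally abundant. In NF1-MET vehicle Mcm6 was the highest, at 96.5 CPM per kb, and Mcm2 the lowest, at 48.8 CPM per kb, while Mcm3, Mcm4, Mcm5 and Mcm7 lay between 55.8 and 64.03 CPM per kb. The ratio of the highest to the lowest subunit was 1.98 and 2.10 in vehicle and capmatinib libraries of NF1-MET, and 1.83 and 1.95 in those of NF1-MET;sgP53. Mcm6 led in all 4 groups, and Mcm2 was the lowest in both vehicle groups. In capmatinib the lowest place could not be told from the spread, since the libraries of Mcm5 and Mcm7 overlapped in NF1-MET and those of Mcm7 and Mcm2 in NF1-MET;sgP53. The 5 subunits other than Mcm6 lay close together there, between 27.6 and 33.1 CPM per kb in NF1-MET.

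**Figure D2:**
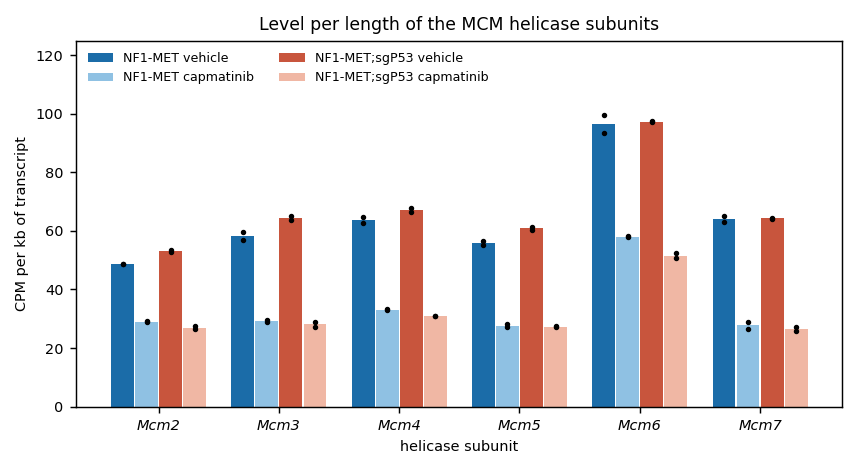
Level per length of the 6 MCM ring subunits, in CPM per kb of transcript (bars, mean of 2 libraries; dots, single libraries), in the 4 groups. Mcm6 is the highest subunit in every group, and every capmatinib bar is lower than the vehicle bar of its line.

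The 4 GINS genes, whose products bind the MCM ring as a complex, did not fall to the same degree. Gins1 changed by -0.99 ± 0.088 in NF1-MET cells and -1.14 ± 0.085 in NF1-MET;sgP53, while Gins4 changed by -0.50 ± 0.059 and -0.43 ± 0.057. Gins3 was the helicase gene with the smallest change in NF1-MET, at -0.36 ± 0.093, with 10.5 and 10.1 CPM in vehicle, 7.55 and 8.59 CPM in capmatinib, and, in NF1-MET;sgP53, 11.1 and 10.1 CPM in vehicle and 7.32 and 7.55 CPM in capmatinib. The groups of Gins3 did not overlap within a line. Per length Gins3 also had the lowest mean of all 41 genes in each group, at 4.09 CPM per kb in NF1-MET vehicle. In capmatinib its libraries overlapped those of Orc1 in both lines. The means of Gins3 and Orc1 were 3.205 and 3.21 CPM per kb in NF1-MET, and 2.95 and 3.05 CPM per kb in NF1-MET;sgP53. Gins2 stood at 23.1 and 24.3 CPM in vehicle and 18.6 and 18.4 CPM in capmatinib of NF1-MET, and at 26.97 and 26.7 CPM against 17.1 and 16.4 CPM in NF1-MET;sgP53. Gins2 shares 2758 bases of exon with Gse1 on the opposite strand, and the strand setting of the counting is not given in the sources used here, so that reads of both genes may not be told apart.

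The 5 licensing genes changed by -0.68 to -0.99 on the log2 scale in NF1-MET and by -0.85 to -1.19 in NF1-MET;sgP53. Cdc6, the ATPase that recruits the MCM ring to origins, stood at 42.7 and 43.4 CPM in NF1-MET vehicle, 22.7 and 21.4 CPM in NF1-MET capmatinib, 41.6 and 42.8 CPM in vehicle and 19.7 and 19.95 CPM in capmatinib of NF1-MET;sgP53. Cdt1, its partner in loading, changed by -0.97 ± 0.048 and -1.19 ± 0.046. Orc1, the ORC subunit whose abundance changes through the cell cycle, had the smallest change of the group in NF1-MET, with 15.9 and 14.8 CPM in vehicle against 9.61 and 9.76 CPM in capmatinib, and 17.3 and 16.6 against 8.99 and 9.398 CPM in NF1-MET;sgP53. The other measured ORC members of the group, Orc2 and Orc6, changed by -0.69 and -0.72 in NF1-MET. Mcm10, which is needed to activate the loaded helicase (chr2:4989714-5012791, minus strand, mm10), stood at 39.5 and 39.9 CPM in vehicle and 21.5 and 22.3 CPM in capmatinib of NF1-MET, and at 46.2 and 43.7 CPM against 18.4 and 18.8 CPM in NF1-MET;sgP53. It was thus highest in the vehicle libraries and lowest in the capmatinib libraries of NF1-MET;sgP53.

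All 8 polymerase and primase genes fell in both lines, with medians of -0.81 in NF1-MET cells and -0.95 in NF1-MET;sgP53. Polymerase alpha, which starts each new strand with primase, had the largest changes in NF1-MET, at -1.06 ± 0.034 for its catalytic subunit Pola1 and -1.10 ± 0.043 for its B subunit Pola2. Pola2 stood at 63.4 and 64.3 CPM in NF1-MET vehicle, 29.9 and 30.4 CPM in NF1-MET capmatinib, 57.3 and 61.4 CPM in vehicle and 28.3 and 27.2 CPM in capmatinib of NF1-MET;sgP53. The 2 primase subunits, which bind polymerase alpha in 1 complex, differed in size of change, since the catalytic subunit Prim1 changed by -0.81 ± 0.055 and the large subunit Prim2 by -0.38 ± 0.045 in NF1-MET. Prim2 stood at 47.4 and 45.99 CPM in vehicle and 35.4 and 36.8 CPM in capmatinib of NF1-MET, and at 53.8 and 51.00 against 35.9 and 36.8 CPM in NF1-MET;sgP53. For the lagging-strand polymerase delta the changes in NF1-MET were -0.75 for Pold1 and -0.77 for Pold2, and for the leading-strand polymerase epsilon they were -0.80 for Pole and -1.01 for Pole2.

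The sliding clamp gene Pcna, whose product encircles DNA and tethers the polymerases, stood at 173 and 178 CPM in NF1-MET vehicle, 98.5 and 91.4 CPM in NF1-MET capmatinib, 181 and 177 CPM in vehicle and 88.6 and 88.4 CPM in capmatinib of NF1-MET;sgP53. It changed by -0.91 ± 0.032 and -1.02 ± 0.034, and per length it had the highest mean of the 41 genes in all groups but NF1-MET;sgP53 capmatinib, where Rrm1 was higher. In NF1-MET capmatinib the libraries of Pcna, at 60.2 to 64.9 CPM per kb, overlapped those of Rrm1, at 60.6 to 60.8 CPM per kb. The 5 clamp loader genes did not fall alike. Rfc1, the large subunit, stood at 106 and 108 CPM in vehicle and 88.8 and 89.1 CPM in capmatinib of NF1-MET, and at 115 and 112 against 93.1 and 85.3 CPM in NF1-MET;sgP53. That is a change of -0.29 ± 0.030 and -0.35 ± 0.040, where the small subunits ran from -0.50 for Rfc2 to -0.89 for Rfc4 in NF1-MET. The ratio of the highest subunit, Rfc1, to the lowest, Rfc2, per length went from 2.20 in vehicle to 2.54 in capmatinib in NF1-MET and from 2.06 to 2.70 in NF1-MET;sgP53.

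Of all 41 genes Rpa1, the large subunit of the complex that coats single-stranded DNA in replication and in repair, changed least in NF1-MET, at -0.19 ± 0.027 (adjusted p = 1.01e-07). It stood at 203 and 206 CPM in vehicle and 184 and 178 CPM in capmatinib, and in NF1-MET;sgP53 at 235 and 223 CPM against 173 and 174 CPM. The libraries did not overlap in either line, although the NF1-MET values lay close. Its partner Rpa2 changed by -0.64 ± 0.053 and -0.87 ± 0.054, with 40.99 and 38.99 CPM in vehicle and 27.03 and 25.02 CPM in capmatinib of NF1-MET, and 44.1 and 43.1 CPM against 22.6 and 25.1 CPM in NF1-MET;sgP53. The enzymes that finish Okazaki fragments fell by similar amounts in NF1-MET, where Fen1, the flap nuclease, changed by -0.85 ± 0.043 and Lig1, the ligase that seals the nick, by -0.94 ± 0.031. Fen1 stood at 59.4 and 60.7 CPM in vehicle and 33.8 and 33.6 CPM in capmatinib of NF1-MET, and at 66.4 and 67.3 against 32.3 and 33.95 CPM in NF1-MET;sgP53. Lig1 stood at 140.1 and 144 CPM against 73.2 and 76.6 CPM in NF1-MET and at 148 and 154 against 76.2 and 78.2 CPM in NF1-MET;sgP53.

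The 5 genes of nucleotide supply fell as well, from -0.67 to -0.92 in NF1-MET. Dut, which hydrolyses dUTP and so keeps uracil out of DNA, stood at 81.3 and 79.7 CPM in vehicle and 42.9 and 42.9 CPM in capmatinib of NF1-MET, and at 86.8 and 83.4 against 43.7 and 44.9 CPM in NF1-MET;sgP53. Tyms, which makes the thymidylate that DNA needs, stood at 62.5 and 59.3 CPM against 39.6 and 38.2 CPM in NF1-MET and at 66.7 and 63.99 against 37.3 and 39.4 CPM in NF1-MET;sgP53. Between the subunits of ribonucleotide reductase, the enzyme that makes deoxyribonucleotides, Rrm1 changed by -0.74 ± 0.024 and Rrm2, the subunit made mainly in S phase, by -0.89 ± 0.029 in NF1-MET, and by -0.85 ± 0.029 and -1.12 ± 0.035 in NF1-MET;sgP53. Tk1, the thymidine kinase of the salvage pathway, changed by -0.68 and -0.87. Uhrf1, which brings the maintenance methyltransferase to newly copied DNA, stood at 212 and 217 CPM in vehicle and 106 and 107 CPM in capmatinib of NF1-MET, and at 208 and 216 against 97.3 and 101 CPM in NF1-MET;sgP53. Its changes were -1.02 ± 0.028 and -1.10 ± 0.034.

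**Figure D3:**
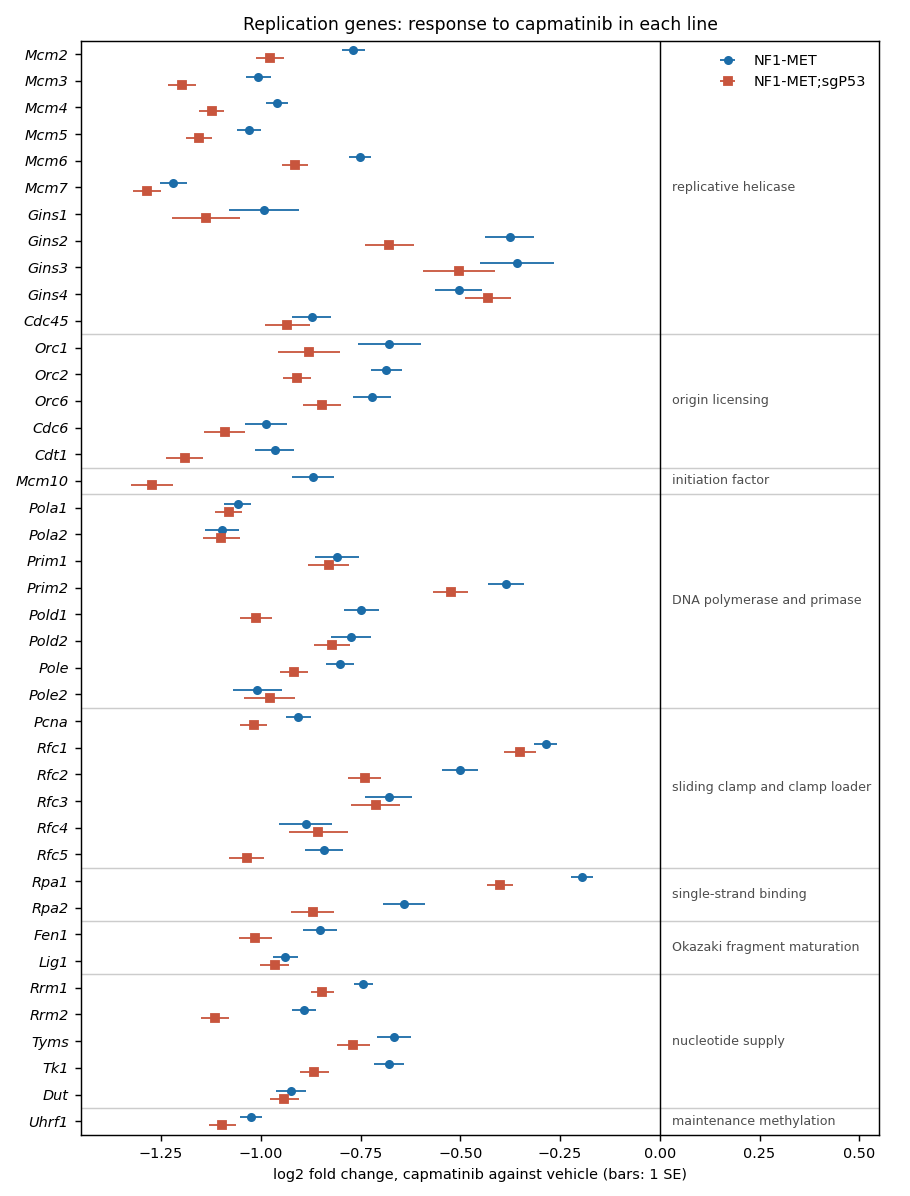
Log2 fold change of capmatinib against vehicle for the 41 replication genes in NF1-MET (circles) and NF1-MET;sgP53 (squares), with bars of 1 SE, grouped by role. All points lie left of 0, with Mcm7 at the far left in both lines and Rpa1 and Rfc1 nearest to 0.

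Other genes of replication and of the G1/S step moved with the 41. Of 51 further replication genes, 47 fell and 2 rose in NF1-MET, with a median log2 fold change of -0.66, and 46 fell and 2 rose in NF1-MET;sgP53, with a median of -0.69. That is 92.2% and 90.2% called lower and 3.92% called higher in each line, where 34.7% and 33.4% of all genes were called lower and 35.5% and 34.2% higher. The largest falls in NF1-MET were those of Dctpp1, a pyrophosphatase that cleans the nucleotide pool (-1.32 ± 0.074), the nuclease and helicase Dna2 (-1.29 ± 0.12), the helicase Recql4 (-1.16 ± 0.081) and the histone chaperone Nasp (-1.07 ± 0.030). The 2 genes that rose in both lines act on the nucleotide pool too. Samhd1, which breaks down deoxyribonucleotides, changed by 1.41 ± 0.030 in NF1-MET cells and 1.19 ± 0.037 in NF1-MET;sgP53, and Rrm2b, the ribonucleotide reductase subunit used outside S phase, by 0.40 ± 0.059 and 0.42 ± 0.062. Mcm9 and Orc3 were called in neither line, at -0.12 and 0.04 in NF1-MET, and Orc4 was not called in NF1-MET;sgP53, at -0.04.

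Of 32 regulators of the G1/S step, 22 fell and 5 rose in NF1-MET, and 23 fell and 7 rose in NF1-MET;sgP53. In NF1-MET these are 68.8% lower and 15.6% higher, against 34.7% and 35.5% of all genes, and in NF1-MET;sgP53 71.9% and 21.9%, against 33.4% and 34.2%. E2f8 and E2f2, both of the E2F family, had the largest falls, at -2.11 ± 0.035 and -1.99 ± 0.12 in NF1-MET cells, then -2.06 ± 0.037 and -2.16 ± 0.13 in NF1-MET;sgP53. Ccnd1, the D-type cyclin that starts phosphorylation of the retinoblastoma protein, changed by -1.43 ± 0.020 and -1.44 ± 0.024, whereas another D-type cyclin, Ccnd2, rose by 0.77 ± 0.030 and 0.43 ± 0.034. Lin9, a subunit of the complex that joins E2F and MYB factors at cell cycle promoters, changed by -0.84 ± 0.063 in NF1-MET. The inhibitor of cyclin-dependent kinases Cdkn1b rose by 1.08 ± 0.036 and 1.06 ± 0.035 on the log2 scale, and the retinoblastoma gene Rb1 by 0.58 ± 0.050 and 0.80 ± 0.048. The other inhibitor of that family named here, Cdkn1a, fell, with changes of -0.73 ± 0.037 and -1.001 ± 0.068. Rbl2 and Cdkn2c rose by 0.16 and 0.10 in NF1-MET.

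The promoters of the 41 genes were searched for the E2F site, since these data bear on genes that fall together. RefSeq promoter windows (GRCm38.p6, 250 bases before to 50 bases after the start site) were matched by symbol for 34 of the 41 genes, in 41 windows; Gins1, Gins2, Gins4, Prim2, Mcm4, Rfc2 and Pole had none. An E2F site was taken as TTTCCCGC, TTTCGCGC, TTTGCCGC or TTTGGCGC on either strand. It was found in 14 of the 41 windows, or 34.1%, against 2.26% of 32851 windows of all genes. The genes with a match were Mcm3, Mcm5, Mcm6, Mcm7, Gins3, Cdc6, Cdt1, Orc1, Pola1, Pold1, Pole2, Rfc3, Lig1 and Uhrf1, and 12 of the 20 matches lay within 100 bases of the start site. The stretches below hold the matches in capitals for the 4 ring subunits with a match and for 5 of the other matched genes, from Cdc6, Pola1 and Uhrf1 with large falls to Orc1 and Gins3 with smaller ones, each read 5′ to 3′ on the strand of the gene. Matches to either strand can overlap, as in Mcm5 and Mcm6, where 1 capital run holds 2 of them.
Mcm5 (chr8:75109336-75109387, plus strand): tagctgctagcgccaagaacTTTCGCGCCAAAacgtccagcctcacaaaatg
Mcm6 (chr1:128359725-128359835, minus strand): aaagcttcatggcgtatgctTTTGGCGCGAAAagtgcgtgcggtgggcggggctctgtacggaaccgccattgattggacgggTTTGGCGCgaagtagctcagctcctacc
Mcm7 (chr5:138172021-138172068, minus strand): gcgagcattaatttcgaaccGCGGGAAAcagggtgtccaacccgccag
Mcm3 (chr1:20820266-20820294, minus strand): gGCGGGAAAacttgggaagtTTTGGCGCc
Cdc6 (chr11:98907993-98908040, plus strand): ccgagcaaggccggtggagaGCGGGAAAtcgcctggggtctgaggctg
Orc1 (chr4:108579407-108579453, plus strand): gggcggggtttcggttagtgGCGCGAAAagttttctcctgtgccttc
Pola1 (chrX:93632266-93632313, minus strand): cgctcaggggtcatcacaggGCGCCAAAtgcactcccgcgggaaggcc
Uhrf1 (chr17:56304108-56304155, plus strand): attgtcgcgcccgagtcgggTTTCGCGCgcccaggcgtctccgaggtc
Gins3 (chr8:95633498-95633545, plus strand): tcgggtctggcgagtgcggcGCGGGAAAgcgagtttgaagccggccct
The match in Mcm7 shown here begins 165 bases before the start site, and a further one begins 16 bases after it. In Mcm3 both matches lie in the transcribed part. A match is a run of letters and not evidence of binding.

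Of the other motifs searched, the CCAAT box (CCAAT) was in 61.0% of the 41 windows against 37.4% of all windows, the GC box (GGGCGG) in 68.3% against 35.7%, and the cell cycle homology region (TTTGAA or TTCGAA) in 17.1% against 19.2%, all counted on either strand and with overlaps between motifs allowed. The 14 genes with an E2F match had a median log2 fold change of -0.98 in NF1-MET, from -1.22 to -0.36, and the 20 matched genes without one had a median of -0.79, from -1.10 to -0.19. The ranges overlap, with Mcm7 at the low end of the first and Gins3 at its high end. These values are a description, and no test was made of them.

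**Figure D4:**
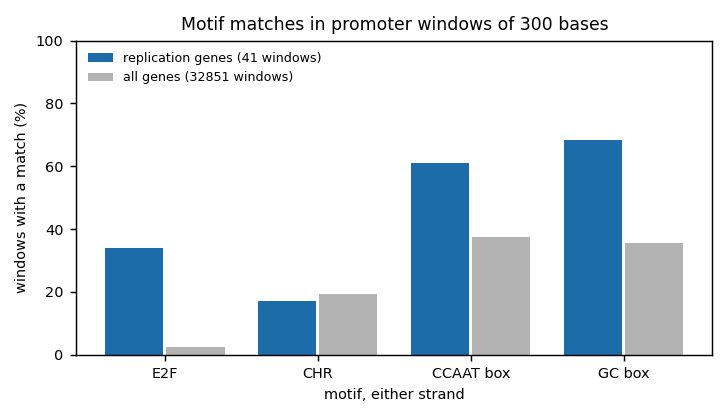
Share of promoter windows of 300 bases with at least 1 match to each of 4 motifs on either strand, in percent, for the replication genes (41 windows) and for all genes (32851 windows). The E2F site is at 34.1% against 2.26%, and the CHR motif is the one with no higher share in the replication genes.

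The lines were compared next within each treatment, which asks whether the knockout line starts from, or ends at, other levels of replication genes. In vehicle the differences were small. Of the 41 genes, 12 were higher in NF1-MET;sgP53 (where 10.9% of all genes tested were called higher) and 1 was lower (12.3% of all genes), with a median log2 difference of 0.07 and a range from -0.12 to 0.16. The genes called higher were Mcm2, Mcm3, Mcm5, Gins2, Orc2, Cdt1, Mcm10, Prim2, Rfc2, Rpa1, Fen1 and Tk1. Tk1 differed by 0.16 ± 0.032 (adjusted p = 0.001), Rpa1 by 0.14 ± 0.029, Gins2 by 0.16 ± 0.055 and Mcm10 by 0.16 ± 0.044. Pola2 was the gene called lower, at -0.12 ± 0.038 (adjusted p = 0.0251). Over all 41 genes, both NF1-MET;sgP53 libraries lay above both NF1-MET libraries for 26, below them for 2, and overlapped them for 13, where 34.5% of all genes lay above and 26.0% below. The count moved both ways with the processing. It was 6 higher and 0 lower with library totals in place of TMM factors (8.84% of all genes higher), 5 higher and 0 lower with DESeq2's test (5.75% and 7.59%), 5 higher without replicate 1 of NF1-MET vehicle (7.49%) and 8 without replicate 2 (7.72%), but 22 higher with library totals that leave out the locus Gm42418 (14.3%) and 18 with all 8 libraries in 1 model (14.1%).

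In capmatinib the differences pointed the other way. Of the 41 genes, 7 were lower in NF1-MET;sgP53 than in NF1-MET (6.34% of all genes tested) and 0 were higher (5.94% of all genes), with a median of -0.08. DESeq2 also called 0 higher (3.01% of all genes) and called 2 lower (3% of all genes). At an unadjusted p under 0.05 in edgeR 0 of the 41 were higher and 15 lower, where 11.7% and 12.2% of all genes were. Mcm10 differed by -0.24 ± 0.060 (adjusted p = 0.0116), Mcm6 by -0.17 ± 0.032 (adjusted p = 0.00143) and Rrm2 by -0.16 ± 0.031 (adjusted p = 0.00154). Mcm2, Mcm4, Pold1 and Uhrf1 were the other genes called, with differences from -0.17 to -0.10. The capmatinib libraries of NF1-MET;sgP53 lay below those of NF1-MET for 24 of the 41 genes and above them for 4, where 26.6% and 25.7% of all genes did. The call was lost for all 7 with library totals, where 0.891% of all genes were called lower. Under that scaling Mcm2, Mcm4 and Uhrf1 turned to small positive differences. Of 13 alternatives run, Mcm6 and Rrm2 kept their call in 12, Mcm10 in 10, and Mcm2, Mcm4, Pold1 and Uhrf1 in 5 to 7. The median difference was -0.087 without replicate 2 of NF1-MET capmatinib and -0.060 without replicate 1 of NF1-MET;sgP53 capmatinib.

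The response to capmatinib was tested directly for a difference between the lines with an interaction term in a fit of all 8 libraries. The interaction was negative, which for these genes is a larger fall in NF1-MET;sgP53, for 38 of the 41, where 56.6% of all genes lay below 0. With library totals and no TMM factors it was negative for 29 of the 41. In the main fit 17 passed the adjusted threshold (5.86% of all genes tested were called negative), while 0 were positive and called (3.85% of all genes). DESeq2 also called 0 positive (2.99% of all genes). At an unadjusted p under 0.05 in edgeR 0 were positive and 22 negative, where 8.64% and 13.1% of all genes were. The median difference was -0.14, against -0.03 over all genes. By role the 17 were Mcm2, Mcm3, Mcm4, Mcm5, Mcm6 and Gins2 of the helicase, Orc2 and Cdt1 of licensing, Mcm10, Pold1 of the polymerases, Rfc2 and Rfc5 of the clamp loader, Rpa1 and Rpa2, and Rrm1, Rrm2 and Tk1 of nucleotide supply. The largest difference was that of Mcm10, at -0.42 ± 0.074 (adjusted p = 3.68e-04), whose level fell 1.83-fold in NF1-MET and 2.42-fold in NF1-MET;sgP53. Gins2 followed with -0.32 ± 0.085 (adjusted p = 0.0154), for a 1.298-fold fall against 1.601-fold. Rrm2 stood at 158 and 157 CPM in vehicle and 86.5 and 85.3 CPM in capmatinib of NF1-MET, and at 167 and 166 against 76.3 and 77.3 CPM in NF1-MET;sgP53, a difference of -0.24 ± 0.043 (adjusted p = 3.99e-04). In Mcm10, Gins2 and Rrm2 alike, NF1-MET;sgP53 had the higher vehicle libraries and the lower capmatinib libraries.

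The remaining 24 genes did not pass the threshold, which does not show that they responded alike. For polymerase alpha the interval was narrow around 0, with a difference of -0.04 for Pola1 (95% interval -0.13 to 0.05) and -0.02 for Pola2 (-0.14 to 0.11). Mcm7, the gene with the largest fall in either line, differed by -0.08 (-0.18 to 0.02). Mcm5, which was called at -0.14 (adjusted p = 0.0408), lies inside that interval, and its call was lost in 12 of the 16 alternatives run. Fen1 missed the threshold narrowly, at -0.18 (adjusted p = 0.051). Orc1, at -0.22 (-0.43 to -0.01), had a difference close to those called but a wider interval, and its counts were among the lowest. Gins4, Rfc4 and Pole2 were the 3 genes with a difference above 0, from 0.02 to 0.06.

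**Figure D5:**
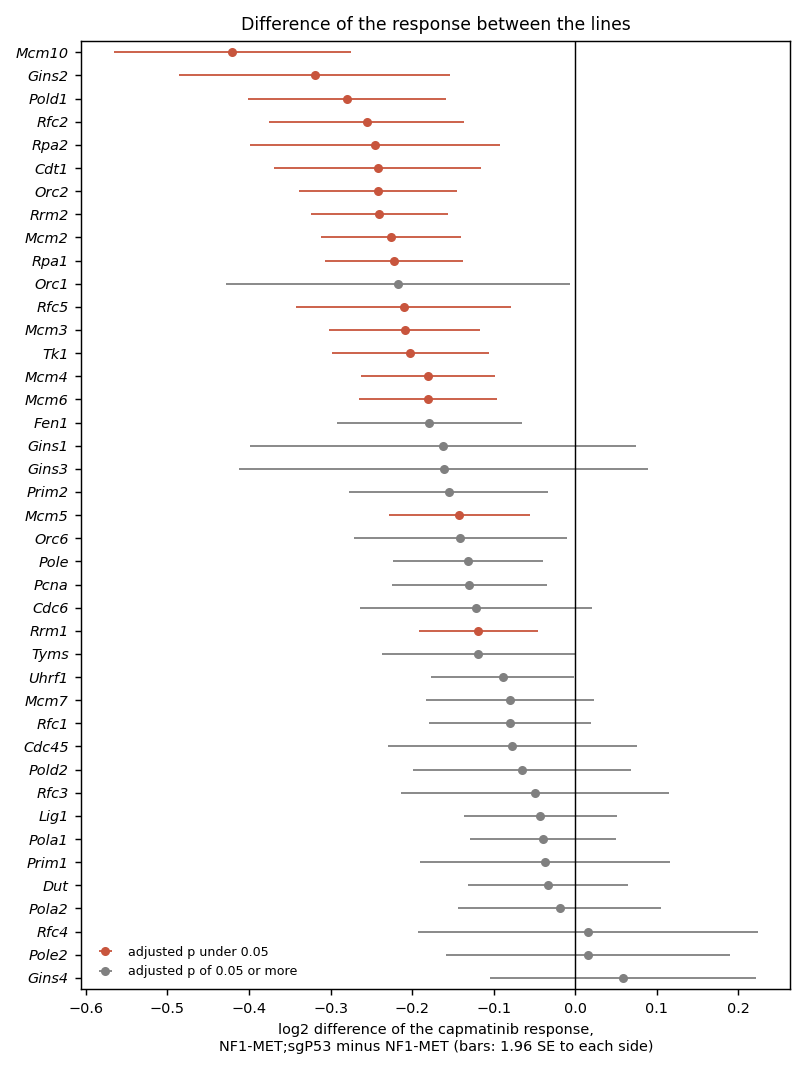
Difference of the capmatinib response between the lines for each of the 41 replication genes, as the log2 fold change in NF1-MET;sgP53 minus that in NF1-MET (points), with approximate 95% intervals (bars). The 17 genes past the adjusted threshold all lie left of 0, and Mcm10 is the farthest from 0.

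The interaction calls depended on the scaling. With library totals and no TMM factors 0 of the 17 were called, with DESeq2 9 genes were (3.18% of all genes), and leaving out 1 library at a time gave 10 to 15, with 10 without replicate 1 of NF1-MET vehicle, 11 without replicate 1 of NF1-MET capmatinib and 10 without replicate 2 of NF1-MET;sgP53 capmatinib. Library totals that include Gm42418 were the only one of the 16 alternatives run that ended the call for Mcm2, Mcm3, Orc2, Mcm10, Rpa1 and Rrm2. Most alternatives ended it for 4 others of the 17, since Rfc5 kept its call in 3 of the 16, Mcm5 and Rrm1 in 4 and Rpa2 in 5, and the remaining 7 kept theirs in 10 to 14. Several of the 17 genes share exon bases with a neighbour on the opposite strand, among them Gins2 with Gse1, Orc2 with Nif3l1 (686 bases), Rfc2 with Lat2 (952 bases) and Rfc5 with Wsb2 (499 bases). The comparisons share libraries, so that the line differences in vehicle and in capmatinib and the interaction are not independent of each other.

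The further replication genes were called between the lines near or below the share of all genes in vehicle, at 11.8% higher and 3.92% lower against 10.9% and 12.3%, and below it in capmatinib, at 1 of 51 each way against 5.94% and 6.34%. In vehicle 6 of 51 were higher and 2 lower in NF1-MET;sgP53, with Samhd1 at 0.35 ± 0.034, Pole4 at 0.16 ± 0.044, Orc3 at 0.14 ± 0.042 and Mtbp at 0.12 ± 0.038 the highest, and Pold4 at -0.40 ± 0.044 and Top1 at -0.11 ± 0.030 lower. In capmatinib Samhd1 was higher (0.13 ± 0.033) and Pold3 lower (-0.24 ± 0.062). The interaction was called negative for 6 (11.8%, against 5.86% of all genes), among them Mcm8 (-0.33 ± 0.10), Pole4 (-0.27 ± 0.078), Atad5 (-0.25 ± 0.077) and Samhd1 (-0.25 ± 0.046), and positive for 2 (3.92%, against 3.85%), Pold4 (0.31 ± 0.069) and Top1 (0.17 ± 0.044). Samhd1 thus rose in both lines, and by less in NF1-MET;sgP53.

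Of the 32 regulators, 6 were higher and 5 lower in NF1-MET;sgP53 in vehicle, and 4 were higher and 5 lower in capmatinib. In vehicle these are 18.8% and 15.6%, against 10.9% and 12.3% of all genes, and in capmatinib 12.5% and 15.6%, against 5.94% and 6.34%. Cdkn1a had the largest difference, at -1.69 ± 0.044 in vehicle and -1.95 ± 0.054 in capmatinib. The others called lower in vehicle were Cdkn2b (-0.41), E2f2 (-0.30), Ccnd1 (-0.23) and E2f8 (-0.11), and in capmatinib they were Ccnd1 (-0.24), E2f6 (-0.22), Ccne2 (-0.21) and Rbl1 (-0.15). Ccnd2 was higher in both, at 0.74 ± 0.035 and 0.40 ± 0.031, and Cdk6 was higher in vehicle (0.37). The interaction was called negative for 4 (12.5%, against 5.86% of all genes), Ccnd2 (-0.35), Cdk6 (-0.29), Cdkn1a (-0.28) and Rbl1 (-0.20), and positive for 2 (6.25%, against 3.85%), Cdkn2a (0.59) and Cdkn2b (0.45). Ccnd2 thus rose by less in NF1-MET;sgP53, where it was already higher in vehicle. Reads were assigned to Cdkn2a in every library, between 8.15 and 11.7 CPM, although the gene is described as deleted in the NF1-MET line.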

How the data were processed

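RNA from 8 libraries (poly(A) selected, KAPA mRNA HyperPrep, paired-end) was sequenced by the authors. The deposited values are raw read counts per gene. The submitters' processing notes name bcl2fastq 1.9.0, Trim Galore 0.4.2, FastQC 0.11.7 and STAR 2.5.2b, with mm10; the annotation release and strand setting are not given in the sources used here. Here 14497 genes passed a minimum of 10 counts in 2 or more libraries, which removed 0.0396% of counts, and each comparison was fitted with edgeR 4.0.16 (R 4.3.3, limma 3.58.1), TMM factors and the quasi-likelihood test, with p-values adjusted by Benjamini-Hochberg over all genes and called under 0.05. The interaction used all 8 libraries. SEs were taken from the fold change and its F statistic. The scripts were tested on simulated data. DESeq2 1.42.0 and the other settings were alternatives. Levels per length used the principal transcript in GENCODE M21 (50376 of 50600 identifiers found). Replicates of a group differed by 1.54 to 1.86 times the sampling noise, so none was a duplicate. Count totals per library lay between 30116810 and 42781371.

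The members and gene lists were chosen with earlier results of these data known. All 41 members could be named, with values in every library for those with the largest and smallest capmatinib change in NF1-MET of each role and for those with interaction or line differences of at least 0.3. From the other lists the 4 largest changes each way could be named, and all where 5 or fewer were called. Rrm2 was given by library after its values were seen, and Orc5 was named to complete the ORC subunits. Opposite-strand overlap touched 13 of the 41 genes in GENCODE M21. Reads of Pcna and Tyms could be shared with pseudogene copies, which held 346 and 10 counts in all libraries against 39732 and 14963.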

Additional observations from a re-analysis of the deposited data

Results flagged for a closer look

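The interaction of line and capmatinib was called for 17 replication genes (edgeR quasi-likelihood test, Benjamini-Hochberg adjusted p under 0.05), all with a larger fall in NF1-MET;sgP53. Of all genes tested, 5.86% were called negative and 3.85% positive. Each of the 17 differences between the lines is listed for a closer look. The difference of the log2 fold changes, NF1-MET;sgP53 minus NF1-MET, was as follows. Among the helicase genes it was Mcm2 -0.23, Mcm3 -0.21, Mcm4 -0.18, Mcm5 -0.14, Mcm6 -0.18 and Gins2 -0.32. In origin licensing and initiation it was Orc2 -0.24, Cdt1 -0.24 and Mcm10 -0.42. For the polymerase and clamp loader genes it was Pold1 -0.28, Rfc2 -0.26 and Rfc5 -0.21. For single-strand binding it was Rpa1 -0.22 and Rpa2 -0.25, and for nucleotide supply Rrm1 -0.12, Rrm2 -0.24 and Tk1 -0.20. The SE ran from 0.037 for Rrm1 to 0.085 for Gins2. No cause was tested, and each genotype is 1 line.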

How the results depend on the processing

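All 41 genes kept their fall and their call in both lines under every alternative run, which were other scalings (DESeq2 size factors, library totals, library totals without Gm42418), the bias-adjusted form of the edgeR fit, DESeq2's own test, other filters on low counts, 1 model over all 8 libraries, the replicate block and each library left out. The line comparisons, whose differences are small, depended more on the processing. In vehicle (12 higher, 1 lower) library totals gave 6 higher and 0 lower, library totals without Gm42418 gave 22 and 0, DESeq2's test gave 5 and 0, 1 model over all libraries gave 18 and 0, and leaving out 1 library gave 5 to 11 higher and 0 to 1 lower. In capmatinib (7 lower, where 6.34% of all genes were) library totals gave 0 (0.891%) and those without Gm42418 3 (5.68%). DESeq2's test gave 2 (3%) and no filter beyond 1 count 3 (2.73%). Leaving out 1 library gave a median difference from -0.096 to -0.060, against -0.077. For the interaction (17 negative) library totals gave 0, DESeq2's test 9, and leaving out 1 library 10 to 15. Under library totals the median difference in capmatinib reversed from -0.08 to 0.035, and Mcm2, Mcm4 and Uhrf1 reversed to 0.014, 0.015 and 0.012. That scaling also moved the median of all genes, to -0.18 and -0.12 for capmatinib in NF1-MET and NF1-MET;sgP53, 0.06 and 0.11 for the lines in vehicle and capmatinib, and 0.05 for the interaction, which shows how far the scaling itself shifts such values. Among all genes it turned 34.7% lower and 35.5% higher with capmatinib in NF1-MET into 44.0% and 24.2%. Where a library was left out, the lone library of that arm was assumed to vary like the others. Samples with the same replicate number did not deviate together (correlations of deviations from -0.05 to 0.10), so that the numbers do not pair the libraries. With the replicate block 41 were lower with capmatinib in each line (34.6% and 33.5% of all genes). In vehicle it gave 13 higher and 1 lower (13.2% and 14.4%), in capmatinib 8 lower (6.44%) and for the interaction 18 negative (6.24%). With 2 libraries a group and counts from 206 upward, differences of the size seen between the lines rest on few libraries.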
